A study of Mus musculus with 188 samples.

Results

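A set of 10 genes was followed that move iron into cells, store it, release it again or sense it. They were chosen by symbol for their known roles: Slc40a1, Tfrc, Slc11a2, Fth1, Ftl1, Aco1, Ireb2, Ncoa4, Cp and Slc39a14. All 10 were found by Ensembl identifier among the 25472 genes shared by the count tables, and all 10 passed the filter on low counts in both statistical fits. The study asked how hemoglobin (Hb), heme and their binding proteins act on brain tissue after bleeding, and sequenced the mRNA of 188 organotypic brain slice cultures from C57BL/6J mice. These are coronal slices of 150 µm, kept on a membrane at the air-liquid interface and treated from culture day 7 for 24 or 48 h. In batch 1, 10 libraries each came from untreated slices and from slices given heme-albumin at 12.5, 50, 200 or 400 µM or the heme-hemopexin complex (hemeHpx) at 200 µM, all for 24 h. In batches 2 and 3, untreated slices (10 libraries at 24 h and 9 at 48 h) stood beside Hb at 200 and 400 µM (10 libraries at each dose and time). The hemoglobin-haptoglobin complex (HbHp) was given at 200 µM (8 and 8 libraries) and 400 µM (4 and 5), and haptoglobin alone (Hp) at 400 µM (12 and 11). Untreated slices carried no allele or agent beyond the strain and the culture medium, and the labels give no age.

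Some features limit these groups as models. Library names of batches 2 and 3 carry a code, E1 or E2, whose meaning the labels do not give. Every library placed in an HbHp group belongs to batch 3 and carries the code E2, whereas only 1 control library at each time does, so the comparisons of HbHp with control lean on the terms for batch and for this code in the fit. The titles of the hemeHpx libraries name haptoglobin, while their treatment tags name hemopexin, which was followed here. Adult slice cultures lose microglia with time, the tissue is a mixture of cell types, and the proteins given were human. A lower level in bulk tissue can come from fewer cells of a type or from less RNA per cell, and these cannot be told apart. A further 21 libraries carry labels that contradict each other and enter no comparison. Of these, 20 are of batch 3 with titles that name HbHp at 400 µM, 14 of them with the code E1, so leaving them out is part of why the HbHp groups hold E2 alone. Nothing in the labels says that the libraries of a group come from separate animals, so p-values measure the spread between libraries.

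Iron bound to transferrin enters cells through the transferrin receptor (Tfrc) and leaves the endosome through the divalent metal transporter DMT1 (Slc11a2). Iron that is not bound to transferrin can enter through ZIP14 (Slc39a14). Ferritin, a shell of heavy (Fth1) and light (Ftl1) chains, stores it, the cargo receptor Ncoa4 delivers ferritin to the lysosome, and ferroportin (Slc40a1) exports iron with the help of the ferroxidase ceruloplasmin (Cp), which in brain is mainly an astrocyte protein. The iron regulatory proteins IRP1 (Aco1) and IRP2 (Ireb2) bind hairpins called iron-responsive elements when iron is scarce. Binding in a 5′ untranslated region blocks translation, as in ferritin mRNA, and binding in the 3′ untranslated region protects Tfrc mRNA from decay. Fth1, Ftl1 and Slc40a1 are in addition transcribed more when the factors NRF2 and BACH1 respond to heme.

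Because these hairpins divide the genes into those with an element at the start and those with elements at the end of the mRNA, they are shown before the values. Each is 29 bases, written 5′ to 3′ on the strand of the gene, with the 6-base loop CAGTGN in capitals. The letters searched were C, any 5 bases, CAGTGN and 5 bases that can pair with the 5 bases before the loop in at least 4 places, in untranslated regions of the annotated strand only.
Slc40a1 5′ site: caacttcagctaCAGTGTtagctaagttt
Tfrc 3′ site 1: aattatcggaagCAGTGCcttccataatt
Tfrc 3′ site 2: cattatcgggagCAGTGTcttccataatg
Tfrc 3′ site 3: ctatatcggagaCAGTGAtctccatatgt
Tfrc 3′ site 4: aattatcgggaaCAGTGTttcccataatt
Slc11a2 3′ site: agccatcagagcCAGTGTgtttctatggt
Fth1 5′ site: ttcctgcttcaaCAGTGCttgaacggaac
Ftl1 5′ site: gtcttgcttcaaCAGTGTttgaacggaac
On GRCm38 with GENCODE M21, the Slc40a1 site lies in exon 1 at chr1:45925465-45925493 (minus strand), the Fth1 site at chr19:9982732-9982760 (plus strand) and the Ftl1 site in exon 1 at chr7:45459779-45459807 (minus strand). All 4 Tfrc sites lie in exon 19 on the plus strand, at chr16:32631219-32631247, chr16:32631598-32631626, chr16:32631663-32631691 and chr16:32631710-32631738. The Slc11a2 site is at chr15:100395153-100395181 in exon 16 on the minus strand. Of the annotated coding transcripts, the site is present in 4 of 5 for Fth1, 1 of 2 for Ftl1, 1 of 4 for Slc40a1 and 1 of 6 for Slc11a2, and each Tfrc site in 1 of 3. The same letters stand in an untranslated region of 1073 of 21877 coding genes (4.90%), of which 205 (0.937%) have them in the 5′ and 872 (3.99%) in the 3′ region. They stand in 5 of the 10 genes here and were not found in Aco1, Ireb2, Ncoa4, Cp or Slc39a14. A match is a description of sequence, and no binding was measured.

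On GRCm38, the iron importers and their partners lie as follows: Tfrc (ENSMUSG00000022797) at chr16:32608920-32632794 (plus), Slc11a2 (ENSMUSG00000023030) at chr15:100387898-100425072 (minus) and Slc39a14 (ENSMUSG00000022094) at chr14:70303469-70351425 (minus). The ferritin genes and their cargo receptor are Fth1 (ENSMUSG00000024661) at chr19:9980598-9985098 (plus), Ftl1 (ENSMUSG00000050708) at chr7:45457944-45459884 (minus) and Ncoa4 (ENSMUSG00000056234) at chr14:32159865-32179855 (plus). The export genes are Slc40a1 (ENSMUSG00000025993) at chr1:45908068-45926523 (minus) and Cp (ENSMUSG00000003617) at chr3:19957054-20009145 (plus), and the sensors Aco1 (ENSMUSG00000028405) at chr4:40143081-40198338 (plus) and Ireb2 (ENSMUSG00000032293) at chr9:54863789-54912530 (plus). The submitters counted on GRCm39, so these positions serve only to place the genes. Slc11a2, Ftl1 and Cp overlap exons of Gm5475, Gm10252 and Hps3 on the other strand, and whether counting used the strand is not given in the sources used here, so reads of these pairs may not be separated. Ferritin has processed copies elsewhere in the genome. Adding the counts of the pseudogene Ftl1-ps1 to Ftl1, and of the Fthl17 paralogs to Fth1, changed no call. Processed copies of Fth1 were not added, so their part in its counts was not tested.

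Total counts lay between 11038484 and 44199060 for batch 1 (median 22054776) and from 15587938 to 54174784 among the grouped libraries of batches 2 and 3 (median 32626873). The fewest reads on any of the 10 genes in a library were 95, for Slc40a1, and Fth1 had 39664 to 402114. Markers of neurons, astrocytes, oligodendrocytes and microglia were present in all 18 groups, with the summed level of 8 microglial markers at 548 to 1862 CPM (median 898) in batch 1 controls. The summed level of 7 red cell genes did not exceed 0.36 CPM in any library. CPM here is the count of a gene relative to the total of its library, scaled by the trimmed mean of M values, and a level per kb is CPM divided by the exon length of the gene in kb. Batch 1 was fitted apart from batches 2 and 3, and levels are not compared between these. The E1 or E2 code was the stronger division in batches 2 and 3. E2 differed from E1 in 9 of the 10 genes, where 68% of all genes did, with Ftl1 higher by 0.63 and Slc40a1 by 0.36, and Tfrc at -0.37 on the log2 scale.

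In untreated slices of batch 1 the 10 mRNAs spread over a wide range of level per kb. Ferritin led, with Ftl1 at 1830.1 ± 692 and Fth1 at 1483 ± 343 CPM per kb (SD, n = 10), and these neighbours did not differ beyond their spread. Cp followed at 104 ± 18.4 CPM per kb. Next came Aco1 at 21.3 and Tfrc at 21.1 CPM per kb, which lay within 1 SD of each other, then Slc39a14 at 15.2, Ireb2 at 11.9, Slc11a2 at 8.83 and Ncoa4 at 5.25. Slc40a1, the only known exporter of iron, was lowest at 1.83 ± 0.719 CPM per kb. The lengths come from GRCm38, and genes with long 3′ ends can differ in the part that is transcribed.

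Heme-albumin raised the exporter and ferritin mRNA and lowered the receptor, with the largest differences at the highest dose. The comparison asks what heme and its carrier albumin do together when no scavenger is given. No group received albumin or hemopexin alone, so heme and its carrier protein cannot be told apart against control. At 200 µM, Slc40a1 was 4.08-fold higher than in untreated slices and Tfrc stood at 0.540 of control. Fth1, Ftl1 and Ncoa4 rose, and Aco1, Ireb2, Slc11a2, Cp and Slc39a14 did not pass the test. In all, 5 of the 10 genes passed at 200 µM, where 13.6% of all genes tested did, 6 at 400 µM (29% of all genes), 2 at 50 µM (0.463%) and 0 at 12.5 µM (0.045%). The median log2 fold change of the 10 genes at 200 µM was 0.01, against -0.01 over all genes. At 12.5 µM, edgeR gave 2 of the 10 an unadjusted p under 0.05, and DESeq2 also called 0.

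Slc40a1 was 16.5 ± 6.47 CPM (SD, n = 10) in untreated slices, with libraries from 8.64 to 27.8 CPM (median 14.9). At 12.5 µM heme-albumin it ran from 18.4 to 29.6 CPM (median 22.7), at 50 µM from 27.1 to 68.4 CPM (median 41.3), at 200 µM from 46.5 to 95.4 CPM (median 66.3) and at 400 µM from 56.6 to 124 CPM (median 86.5). All 10 libraries at 200 µM and all 10 at 400 µM lay above the highest control, as did 9 of 10 at 50 µM and 1 of 10 at 12.5 µM. The log2 fold change against control was 0.53 ± 0.17 (SE, adjusted p = 0.614) at the lowest dose and 1.39 ± 0.17 (SE, adjusted p = 1.63e-07) at 50 µM. It reached 2.03 ± 0.18 (SE, adjusted p = 2.69e-13) at 200 µM and 2.38 ± 0.18 (SE, adjusted p = 2.06e-16), a 5.21-fold difference, at 400 µM. At 200 µM only 6 of the 15554 genes tested had a higher log2 fold change. Of the steps between doses, only 50 to 200 µM passed the test (0.64, adjusted p = 0.0464, 1 of the 10 genes where 0.797% of all genes passed), and it did not with a correction for GC content and length (0.61, adjusted p = 0.0508). The step from 12.5 to 50 µM was 0.87 (adjusted p = 0.0569) and that from 200 to 400 µM was 0.35 (adjusted p = 0.382) with a 95% interval of 0.03 to 0.68. These steps gave 0 calls among the 10 genes, where 0% and 1.27% of all genes passed, with 2 and 3 of the 10 at an unadjusted p under 0.05 in edgeR, and DESeq2 called 1 and 0.

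Tfrc moved the other way. It was 131 ± 18.5 CPM (SD, n = 10) in untreated slices, with libraries from 105 to 158 CPM (median 131). The libraries ran from 63.8 to 123 CPM (median 109) at 12.5 µM, from 53.9 to 115 CPM (median 89.97) at 50 µM, from 44.7 to 99.5 CPM (median 70.7) at 200 µM and from 25.2 to 87.8 CPM (median 58.2) at 400 µM heme-albumin. At both higher doses every library lay below the lowest control, and at 50 µM 8 of 10 did. The log2 fold change was -0.89 ± 0.16 (SE, adjusted p = 6.39e-05) at 200 µM and -1.22 ± 0.16 (SE, adjusted p = 1.97e-08) at 400 µM, where Tfrc stood at 0.428 of control. At 50 µM it was -0.61 (adjusted p = 0.0568) and at 12.5 µM -0.32 (adjusted p = 0.614), so neither passed. The step from 200 to 400 µM was -0.34 (adjusted p = 0.395) with a 95% interval of -0.65 to -0.02.

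**Figure D1:**
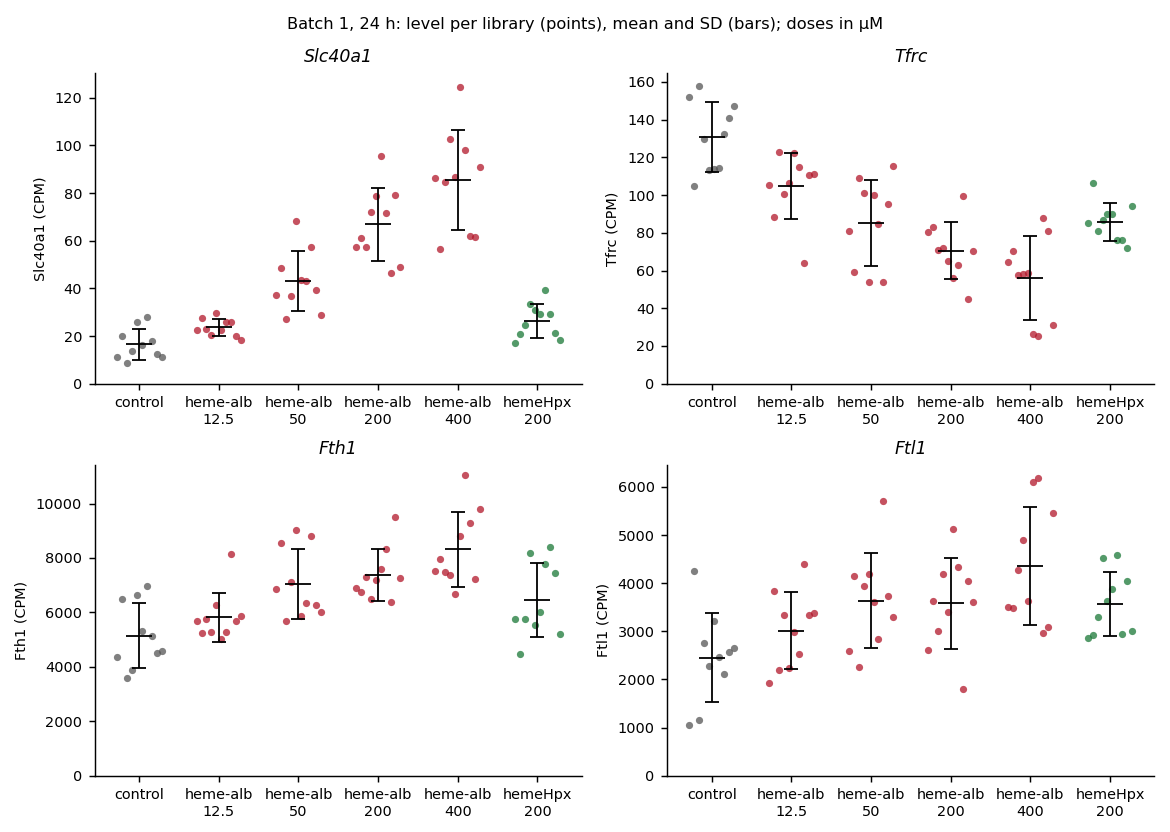
CPM of Slc40a1, Tfrc, Fth1 and Ftl1 in each library (points) of the 6 batch 1 groups at 24 h, in 4 panels with their own linear axes, with the mean and SD of each group (bars). Slc40a1 climbs with the dose of heme-albumin from a mean of 16.5 CPM in control to 85.4 CPM at 400 µM, Tfrc descends from 131 to 55.98 CPM, and hemeHpx lies between control and heme-albumin at 200 µM for both.

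Both ferritin chains rose with heme-albumin, from a high starting level and by less than Slc40a1. Fth1 was 5145 ± 1188 CPM (SD, n = 10) in untreated slices (libraries from 3606 to 6959 CPM, median 4856), 7373 ± 939 CPM at 200 µM and 8314 ± 1372 CPM at 400 µM. At 200 µM 6 of 10 libraries and at 400 µM 9 of 10 lay above the highest control, so the groups overlapped. The log2 fold change of Fth1 was 0.45 (adjusted p = 0.044) at 50 µM, 0.52 ± 0.11 (SE, adjusted p = 0.00103) at 200 µM and 0.69 ± 0.11 (SE, adjusted p = 3.15e-06) at 400 µM. With the GC and length correction the call at 50 µM was lost (0.43, adjusted p = 0.0666). Ftl1 was 2452 ± 927 CPM (SD, n = 10) in untreated slices, and its libraries spread more widely, from 1046 to 4248 CPM (median 2519.8). Its log2 fold change was 0.55 (adjusted p = 0.0355) at 200 µM and 0.83 (adjusted p = 0.000348) at 400 µM. The ratio of Fth1 to Ftl1 reads, a quantity within each library, had a median of 2.08 in untreated slices, 2.06 at 200 µM and 1.81 at 400 µM, with ranges that overlapped throughout.

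Among the other genes, Ncoa4, the ferritin cargo receptor, rose by a small amount, from 49.2 ± 6.60 CPM (SD, n = 10) to 58.2 ± 6.74 CPM at 200 µM and 57.7 ± 3.69 CPM at 400 µM (0.24, adjusted p = 0.00685 for the former and 0.23, adjusted p = 0.00453 for the latter). Cp fell at 400 µM, from 993 ± 176 CPM (SD, n = 10) to 770.1 ± 189.5 CPM (-0.37, adjusted p = 0.00614), with 5 of 10 libraries below the lowest control. At 200 µM its log2 fold change was -0.13 (adjusted p = 0.457), and the step from 200 to 400 µM was not called for it. Slc39a14 gave -0.17 (adjusted p = 0.0744) and Slc11a2 -0.01 (adjusted p = 0.969) at 200 µM. The iron regulatory proteins gave 0.02 (adjusted p = 0.875) for Aco1 and -0.07 (adjusted p = 0.556) for Ireb2 at that dose, and -0.05 (adjusted p = 0.533) and -0.15 (adjusted p = 0.118) at 400 µM. Slc39a14 gave -0.12 and Slc11a2 -0.04 at 400 µM, and neither passed. At 50 µM, Ftl1, Ncoa4, Slc11a2, Aco1, Cp, Slc39a14 and Ireb2 did not pass, from -0.11 for Ireb2 to 0.57 for Ftl1, and at 12.5 µM the same genes and Fth1 lay between -0.12 and 0.30. Markers of other cell types moved in the same slices. At 200 µM 6 of 8 microglial, 3 of 6 border macrophage and 4 of 8 astrocyte markers were lower than in control, and at 400 µM 3, 2 and 6 were. The summed microglial markers ran from 423 to 868 CPM (median 663) at 200 µM and from 422 to 1098 CPM (median 706) at 400 µM, against 548 to 1862 CPM (median 898) in untreated slices, and no marker of these lists was at 0. Their part in these levels was not tested.

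Given as hemeHpx at the same 200 µM, heme was followed by a smaller rise of the exporter, which of the 10 genes differed most between the carriers. Against control, 3 of the 10 genes passed the test, where 8.2% of all genes did: Slc40a1 rose, and Tfrc and Ireb2 fell. Slc40a1 ran from 16.99 to 39.2 CPM (median 26.9), with 5 of 10 libraries above the highest control (log2 fold change 0.69 ± 0.17 SE, adjusted p = 0.0273). Tfrc ran from 71.9 to 106.5 CPM (median 86.1), with 9 of 10 below the lowest control (-0.61 ± 0.16 SE, adjusted p = 0.03). Ireb2 gave -0.23 (adjusted p = 0.0454). With the correction for GC content and length, Tfrc (-0.44, adjusted p = 0.0943) and Ireb2 (-0.03, adjusted p = 0.598) no longer passed. Fth1 (0.33, adjusted p = 0.0552), Ftl1 (0.54, adjusted p = 0.0506) and Cp (-0.32, adjusted p = 0.0501) lay just beyond the threshold. DESeq2 called these 3 genes too, and 6 of the 10 in all, with 1926 of 15554 genes called. RLE scaling called Ftl1 and Cp, and 5 in all, with 1394 of 15554 genes called. A filter of at least 10 counts in every library also called Ftl1 and Cp, and 5 in all, with 1556 of 13517 genes called. Slc11a2, Aco1, Ncoa4 and Slc39a14 did not pass, from -0.05 for Aco1 to 0.02 for Slc39a14. Marker sums differed too, with medians of 721 CPM against 587 CPM in control for neurons and 1086 against 898 CPM for microglia. Border macrophage sums had medians of 124 against 99.4 CPM, and choroid plexus and ependyma sums 401 against 177 CPM. The astrocyte sum was lower, with a median of 10024.5 against 11336.4 CPM. All these ranges overlapped, and the part of these cells in the levels was not tested.

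Set directly against heme-albumin at 200 µM, hemeHpx gave 3 calls among the 10 genes, where 25.9% of all genes passed. Slc40a1 was lower (26.4 ± 7.19 CPM against 66.8 ± 15.3 CPM, log2 difference -1.34 ± 0.17 SE, adjusted p = 5.4e-08), and the highest hemeHpx library, 39.2 CPM, lay below the lowest heme-albumin library, 46.5 CPM. Ncoa4 was lower (-0.24, adjusted p = 0.00632) and Slc39a14 higher (0.19, adjusted p = 0.0267), a call lost with no filter on counts (0.17, adjusted p = 0.0637) and with the GC and length correction (0.14, adjusted p = 0.0607). For Tfrc the difference was 0.28 (adjusted p = 0.171) with a 95% interval of -0.03 to 0.59, and it passed with the GC and length correction (0.38, adjusted p = 0.0363). Fth1 differed by -0.19 (adjusted p = 0.194) with a 95% interval of -0.41 to 0.03. The 2 carriers gave Ftl1 levels of 3572 ± 664 CPM for hemeHpx and 3579 ± 944 CPM for heme-albumin, a log2 difference with a 95% interval of -0.36 to 0.35. Slc11a2, Aco1, Ireb2 and Cp did not pass, from -0.19 for Cp to -0.01 for Slc11a2. In the same comparison 6 of 8 microglial, 4 of 6 border macrophage and 4 of 8 astrocyte markers were higher with hemeHpx, whose microglial sum ran from 631 to 1482 CPM (median 1086).

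Free Hb moved the same pair of genes in the same directions as heme-albumin, Slc40a1 up and Tfrc down, at both doses and both times. In batches 2 and 3, Hb at 200 µM gave 2 calls among the 10 genes at 24 h, where 0.0971% of all genes passed, and 4 at 48 h (0.31% of all genes). Hb at 400 µM gave 3 at 24 h (0.522%) and 4 at 48 h (0.601%). Fth1 joined at 400 µM at 24 h, and Fth1 and Ncoa4 at both doses at 48 h. Slc11a2, Ftl1, Aco1, Ireb2, Cp and Slc39a14 passed in none of the 4 comparisons.

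Untreated slices had Slc40a1 at 18.2 ± 4.44 CPM (SD, n = 10) at 24 h (libraries from 11.2 to 26.6 CPM, median 18.6) and 20.9 ± 9.12 CPM (SD, n = 9) at 48 h (from 10.1 to 35.02 CPM, median 18.8). With Hb at 200 µM it ran from 20.6 to 52.7 CPM (median 34.2) at 24 h and from 28.3 to 73.6 CPM (median 37.4) at 48 h, with 7 and 8 of 10 libraries above the highest control of the same time. With Hb at 400 µM it ran from 24.5 to 82.5 CPM (median 41.2) and from 23.7 to 71.5 CPM (median 47.1), with 9 of 10 above at each time. The libraries of Hb and control thus overlapped at every dose and time. The log2 fold changes were 0.98 ± 0.18 (SE, adjusted p = 0.00145) and 1.26 ± 0.18 (SE, adjusted p = 5.69e-07) at 24 h for 200 and 400 µM. At 48 h they were 1.09 ± 0.18 (SE, adjusted p = 5.39e-05) and 1.22 ± 0.18 (SE, adjusted p = 3.87e-06). Among libraries of E2 alone, with 2 controls at 48 h, they were 1.06 (adjusted p = 0.103) and 0.90 (adjusted p = 0.114) at 48 h.

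Tfrc in untreated slices was 104 ± 19.96 CPM (SD, n = 10) at 24 h (libraries from 61.3 to 126 CPM, median 108) and 106 ± 21.6 CPM (SD, n = 9) at 48 h (from 65.8 to 126 CPM, median 114). Hb at 200 µM brought it to 72.6 ± 17.8 CPM at 24 h and 63.3 ± 16.7 CPM at 48 h, and Hb at 400 µM to 64.8 ± 17.3 CPM and 57.2 ± 17.3 CPM. Between 3 and 7 of 10 libraries per group lay below the lowest control. The fall passed the test in each case, at -0.54 (adjusted p = 0.0101) at 200 µM and -0.65 (adjusted p = 9.36e-05) at 400 µM on the log2 scale for 24 h, and at -0.72 (adjusted p = 3.34e-05) at 200 µM and -0.86 (adjusted p = 3.52e-07) at 400 µM for 48 h. Batch 3 holds only 2 libraries of each Hb group and 2 controls of each time. In batch 3 alone the difference at 200 µM and 24 h was 0.04, the opposite sign, and with no term for batch or code it was -0.52 (adjusted p = 0.169).

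Fth1 was 4679.9 ± 985 CPM (SD, n = 10) at 24 h and 4244 ± 934 CPM (SD, n = 9) at 48 h without treatment. At 48 h its libraries ran from 3186 to 5509 CPM (median 3979) in control, from 4571 to 8730.0 CPM (median 6443) with Hb at 200 µM and from 5308 to 8675 CPM (median 6341) at 400 µM, so 7 and 9 of 10 lay above every control. The log2 fold changes at 48 h were 0.59 ± 0.10 (SE, adjusted p = 5.39e-05) and 0.64 ± 0.10 (SE, adjusted p = 6.9e-06). At 24 h they were 0.27 (95% interval 0.08 to 0.45) at 200 µM, which did not pass, and 0.41 (adjusted p = 0.0127) at 400 µM. The latter was not called within E2 alone (0.22, adjusted p = 0.638) or batch 3 alone (0.14, adjusted p = 0.808). At 48 h the Fth1 differences were 0.55 (adjusted p = 0.3) and 0.40 (adjusted p = 0.198) within E2 alone, and 0.32 (adjusted p = 0.929) and 0.40 (adjusted p = 0.957) within batch 3 alone. Ncoa4 changed by less, with little spread. At 48 h its libraries ran from 59.9 to 69.8 CPM (median 65.7) in control, from 71.99 to 84.7 CPM (median 74.6) with Hb at 200 µM and from 71.1 to 83.97 CPM (median 77.7) at 400 µM, and all 20 Hb libraries lay above the highest control (0.22, adjusted p = 0.0215, and 0.25, adjusted p = 0.00229). With no term for batch or code, Ncoa4 at 200 µM did not pass (0.21, adjusted p = 0.14). Of the 13 calls of Hb against control among the 10 genes, 4 passed within E2 alone (Tfrc in 3 comparisons and Slc40a1 at 400 µM and 24 h) and 0 within batch 3 alone, where for 200 µM at 48 h 0 of 16515 genes passed. For the same comparison 14 of 16429 genes passed within E2 alone. No microglial or astrocyte marker passed in any of these 4 comparisons. Of the 6 border macrophage markers Pf4 was higher with 400 µM Hb at 48 h and none passed in the other 3, and their sum at 48 h had a median of 127 CPM at 400 µM and 114 CPM at 200 µM, against 83.8 CPM in control. Their part in these levels was not tested. The step from 200 to 400 µM Hb gave no call among the 10 genes at either time, and none among all genes (0%). edgeR gave 0 of the 10 an unadjusted p under 0.05 and DESeq2 called 0. For Slc40a1 the 95% interval of 400 against 200 µM was -0.05 to 0.63 at 24 h and -0.22 to 0.46 at 48 h.

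**Figure D2:**
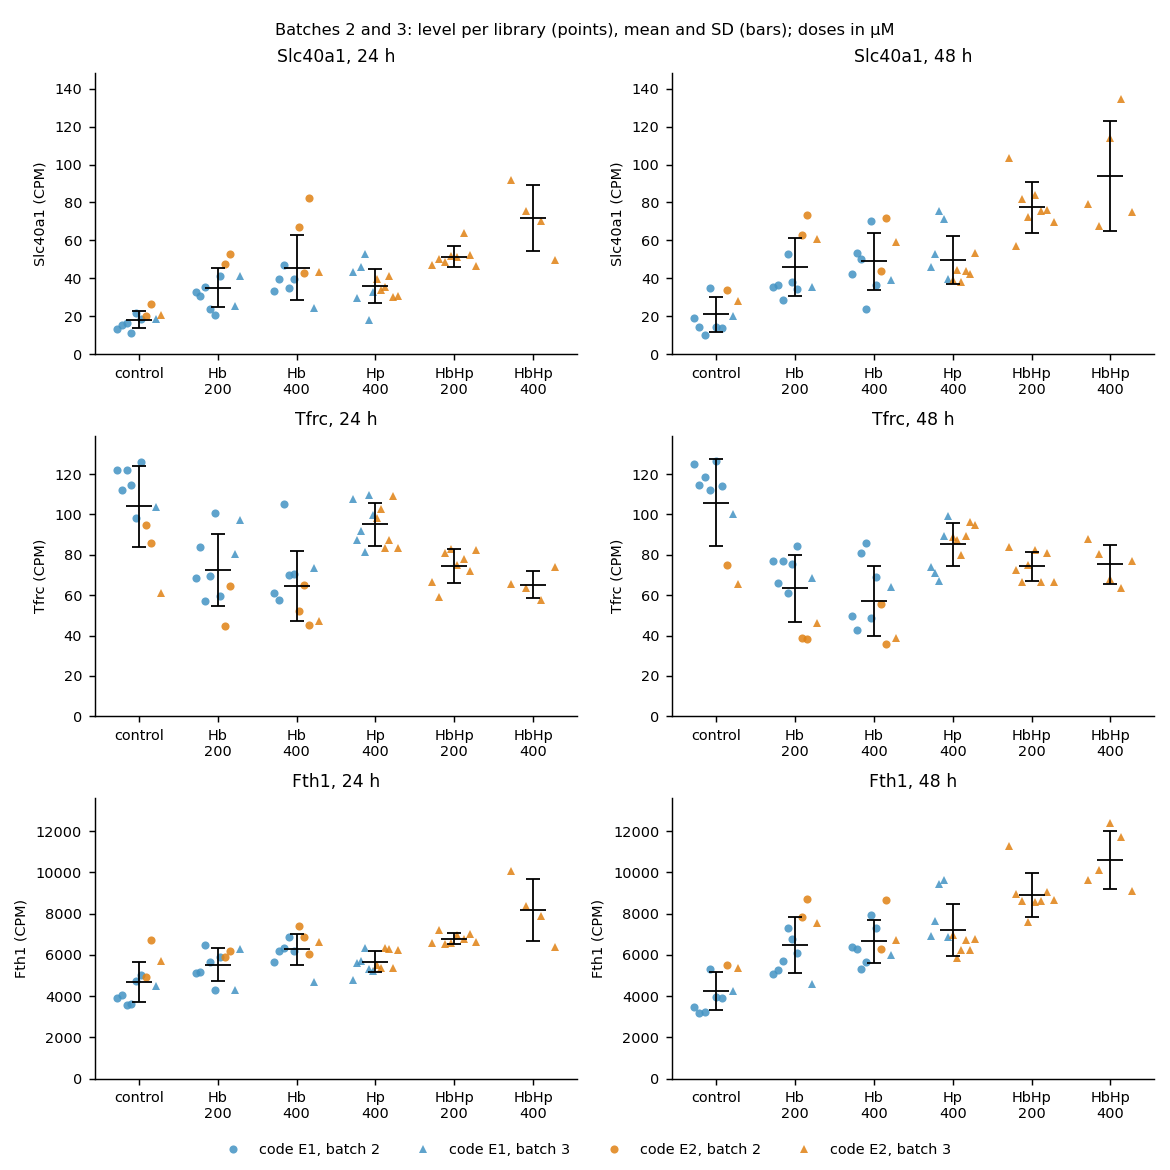
CPM of Slc40a1, Tfrc and Fth1 (rows) at 24 and 48 h (columns) in each library of the 6 groups of batches 2 and 3, with the mean and SD of each group. Blue points carry the code E1 and orange points E2, circles batch 2 and triangles batch 3; every HbHp point is an orange triangle, and the lowest Tfrc controls, at 61.3 and 65.8 CPM, are of that kind too.

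Bound to haptoglobin, Hb was followed by higher Slc40a1 and ferritin mRNA than in control, while Tfrc did not pass the test at either dose or time. HbHp at 200 µM gave 3 calls among the 10 genes at 24 h (Slc40a1, Fth1 and Ireb2 higher), where 1.93% of all genes passed, and 6 at 48 h, where 11.9% did. The 6 were Slc40a1, Fth1, Ftl1, Ncoa4 and Ireb2, which rose, and Slc39a14, which fell. Without replicate 1, a library that stood apart for Fth1, Ncoa4 and Slc39a14, 4 remained called, while Ftl1 (0.47, adjusted p = 0.0588) and Slc39a14 (-0.23, adjusted p = 0.0882) did not pass. HbHp at 400 µM gave 2 calls at 24 h (Slc40a1 and Fth1 higher, 5.15% of all genes) and 5 at 48 h (Slc40a1, Fth1, Ftl1, Ncoa4 and Ireb2 higher, 11.9% of all genes). The median log2 fold change of the 10 genes for 200 µM at 48 h was 0.12, against -0.01 over all genes. Aco1, Slc11a2 and Cp passed in none of the 4 comparisons, and at 24 h Ftl1, Ncoa4 and Slc39a14 did not pass at either dose. At 48 h Pf4, 1 of the 6 border macrophage markers, was higher than in control in HbHp, Hp and 400 µM Hb slices. The summed microglial markers ran from 1654 to 2617 CPM (median 2137) with HbHp at 200 µM, against 546 to 3428 CPM (median 1449) in control, and 0 of 8 microglial markers passed. At 400 µM the summed microglial markers ran from 1192 to 3050.02 CPM (median 1988). Of their 8 genes P2ry12 was lower than in control in the fit and the other 7 did not pass, and 2 of 8 astrocyte markers were lower. The 6 border macrophage markers summed to 115 to 178 CPM (median 120.3) with HbHp at 200 µM and to 54.2 to 149 CPM (median 83.8) in control. The 6 choroid plexus and ependyma markers summed to 139 to 1876 CPM (median 642) at 48 h, against 130 to 549 CPM (median 179) in control. At 24 h their median was 280 CPM at 200 µM and 1251 CPM at 400 µM, against 358 CPM in control. The part of these cells in the levels was not tested.

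Slc40a1 ran from 46.4 to 63.9 CPM (median 50.5) with HbHp at 200 µM for 24 h and from 56.997 to 103 CPM (median 75.7) at 48 h, and all 8 libraries of each group lay above the highest control of the same time. At 400 µM the 4 libraries of 24 h had 91.8, 75.7, 70.1 and 49.4 CPM and the 5 of 48 h had 78.96, 67.6, 114, 135 and 75.1 CPM, all above every control. The log2 fold changes were 1.31 ± 0.22 (SE, adjusted p = 4.65e-05) and 1.79 ± 0.25 (SE, adjusted p = 1.08e-07) at 24 h for 200 and 400 µM. At 48 h they were 1.69 ± 0.22 (SE, adjusted p = 1.84e-08) and 1.97 ± 0.24 (SE, adjusted p = 7.81e-10), or 3.22-fold and 3.91-fold. Within E2 alone the changes at 48 h were 1.44 and 1.72, and within batch 3 alone 1.68 and 1.95, and each passed the test.

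Fth1 gave 6783 ± 255 CPM at 24 h and 8907 ± 1054 CPM at 48 h with HbHp at 200 µM, and all 8 libraries of 48 h lay above the highest control (5509 CPM). The libraries at 400 µM had 10054, 8359, 7877 and 6374 CPM at 24 h and 9617, 10114, 12379.5, 11698 and 9075 CPM at 48 h. The log2 fold changes were 0.45 (adjusted p = 0.0216) and 0.72 (adjusted p = 0.0002) at 24 h, and 0.97 (adjusted p = 3.5e-09) and 1.22 (adjusted p = 1.19e-11) at 48 h. Fth1 at 200 µM and 24 h was not called in a fit of control, Hb and HbHp at 200 µM only (55 libraries, 0.27, adjusted p = 0.29), within E2 alone (0.28, adjusted p = 0.359) or within batch 3 alone (0.37, adjusted p = 0.259). Of the 16 calls of HbHp against control among the 10 genes, 12 passed within E2 alone and 12 within batch 3 alone. For 200 µM at 48 h these fits called 646 of 16429 and 359 of 16515 genes, where the main fit called 1959 of 16473. Ftl1 at 48 h ran from 6979 to 11219 CPM (median 8020.1) at 200 µM, with 6 of 8 above the highest control (7372 CPM), and its 5 libraries at 400 µM had 8114, 6737, 11973, 11656 and 8609.9 CPM. Its log2 fold changes, 0.55 (adjusted p = 0.0157) at 200 µM and 0.73 (adjusted p = 0.00249) at 400 µM, are taken after removing an E2 term of 0.63. Within E2 alone Ftl1 gave 0.16 (adjusted p = 0.69) at 200 µM and 0.33 at 400 µM. Among the E2 libraries of 48 h, the ratio of Fth1 to Ftl1 reads was 0.728 and 0.883 in the 2 controls and ran from 0.959 to 1.24 (median 1.08) in the 8 libraries of HbHp at 200 µM. In the 7 E1 controls it ran from 1.04 to 1.84.

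Ncoa4 at 48 h was 66.1 ± 3.03 CPM (SD, n = 9) in control and 82.002 ± 12.2 CPM with HbHp at 200 µM, with all 8 libraries above the highest control (0.33, adjusted p = 0.000118). At 400 µM its libraries had 84.4, 84.6, 74.2, 82.9 and 76.8 CPM (0.31, adjusted p = 0.00113). Ireb2 gave 0.24 (adjusted p = 0.00898) at 24 h and 0.20 (adjusted p = 0.0137) at 48 h for 200 µM, and 0.19 (adjusted p = 0.0417) at 48 h for 400 µM. Within E2 alone and within batch 3 alone these 3 Ireb2 differences passed and were larger, at 0.34, 0.37 and 0.35 in E2 and 0.32, 0.34 and 0.32 in batch 3. They rest on few controls of E2 in batch 3. The lowest control of each time was that library, and without it the changes at 200 µM were 0.18 (adjusted p = 0.134) at 24 h and 0.14 (adjusted p = 0.116) at 48 h. The Ireb2 call at 400 µM was lost without either control of batch 3 or any of HbHp replicates 1, 3, 4 and 5 (0.12 to 0.18). With no term for batch or code, the Ireb2 differences at 200 µM were -0.05 and -0.10. Slc39a14 fell at 48 h with 200 µM (-0.31, adjusted p = 0.0207), a call lost also without the E1 control of batch 3 (-0.26, adjusted p = 0.0684), and gave -0.11 (adjusted p = 0.544) at 400 µM. Between 400 and 200 µM HbHp, 0 of the 10 genes passed at either time, where 0.176% and 0.127% of all genes did. In these steps edgeR gave 3 and 2 of the 10 an unadjusted p under 0.05, and DESeq2 called 0.

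Tfrc with HbHp at 200 µM ran from 59.2 to 82.95 CPM (median 76.6) at 24 h and from 66.6 to 83.8 CPM (median 73.7) at 48 h. At 400 µM the libraries had 65.4, 63.8, 57.8 and 73.9 CPM at 24 h and 87.8, 80.2, 68.1, 63.7 and 77.04 CPM at 48 h. Their mean lies below that of the pooled controls, but the only E2 controls of batch 3 had 61.3 CPM at 24 h and 65.8 CPM at 48 h, the lowest control of each time. With both terms in the fit the log2 fold changes were -0.13 (adjusted p = 0.809) and -0.32 (adjusted p = 0.306) at 24 h, and -0.12 (adjusted p = 0.638) and -0.10 (adjusted p = 0.743) at 48 h. At 48 h the 95% intervals with these terms were -0.41 to 0.16, and -0.42 to 0.21. A fall of a size like that with Hb (-0.72 and -0.86) lies outside them, but the intervals depend on the terms. With neither term, Tfrc passed as lower at both times (at 200 µM -0.48, adjusted p = 0.0221 at 24 h and -0.51, adjusted p = 0.00386 at 48 h). No E1 library is placed in an HbHp group, so its comparison with control takes the difference between the codes from the other groups.

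Compared directly with Hb at the same dose, which asks what haptoglobin adds, HbHp slices had more Tfrc and Fth1 mRNA at 48 h. At 200 µM, 2 of the 10 genes passed at 48 h, where 4.98% of all genes did: Tfrc (0.60 ± 0.14 SE, adjusted p = 0.00594, a 1.51-fold difference) and Fth1 (0.37 ± 0.12 SE, adjusted p = 0.0474). At 400 µM 3 passed, where 4.28% did: Tfrc (0.75 ± 0.16 SE, adjusted p = 0.00134), Fth1 (0.58 ± 0.13 SE, adjusted p = 0.00383) and Slc40a1 (0.75 ± 0.24 SE, adjusted p = 0.0484). At 24 h the calls were Ireb2 alone at 200 µM (0.22, adjusted p = 0.0425, 0.607% of all genes) and 0 at 400 µM (2.21% of all genes). The Ireb2 call kept its side of the threshold in 6 of 16 alternatives. It was lost within E2 alone (0.29, adjusted p = 0.797), within batch 3 alone (0.21, adjusted p = 0.191) and with the GC and length correction, and with no term for batch or code the direction turned (-0.08). At 24 h and 400 µM edgeR gave 3 of the 10 an unadjusted p under 0.05 and DESeq2 called 0. Slc40a1 gave 0.59 (adjusted p = 0.0892) at 200 µM and 48 h, with a 95% interval of 0.17 to 1.01. The other 7 genes (Slc11a2, Ftl1, Aco1, Ireb2, Ncoa4, Cp and Slc39a14) did not pass at 48 h, with log2 differences from -0.26 for Slc39a14 to 0.19 for Slc11a2 at 200 µM and from -0.13 for Aco1 to 0.34 for Ftl1 at 400 µM. At 24 h the genes that did not pass were the 9 other than Ireb2 at 200 µM, from -0.09 for Slc39a14 to 0.42 for Tfrc, and all 10 at 400 µM, from -0.32 for Cp to 0.53 for Slc40a1. The summed microglial markers at 48 h had a median of 2137 CPM with HbHp against 1359 CPM with Hb (845 to 2888 CPM) at 200 µM, and of 1988 against 1385 CPM (576 to 2995 CPM) at 400 µM, in groups with different shares of E2. In the fit 0 of 8 microglial, 0 of 6 border macrophage and 0 of 8 astrocyte markers passed at 200 µM (1, 2 and 1 at an unadjusted p under 0.05 in edgeR), and at 400 µM P2ry12 and the astrocyte marker Aldoc were lower with HbHp. Their part in the difference was not tested.

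The raw Tfrc levels of the 48 h groups at 200 µM overlapped, at 38.4 to 84.6 CPM with Hb and 66.6 to 83.8 CPM with HbHp, and most of the Hb libraries were from E1, where Tfrc was higher. Within E2 the 3 Hb libraries of 48 h had at most 46.2 CPM and the 8 HbHp libraries at least 66.6 CPM. Without HbHp replicate 1 the Tfrc difference at 200 µM was 0.57 (adjusted p = 0.0208). In the fit of E2 alone it was 0.96 (adjusted p = 0.00022) at 200 µM and 0.89 (adjusted p = 0.000875) at 400 µM. In batch 3 alone it was 0.46 (adjusted p = 0.313) and 0.64 (adjusted p = 0.0863), and with the GC and length correction 0.43 (adjusted p = 0.073) at 200 µM. With no term for batch or code it was 0.23 (adjusted p = 0.24) and 0.40 (adjusted p = 0.0693), so the Tfrc calls rest on the terms of the fit or on E2 alone. Fth1 at 200 µM kept its call in 7 of 16 alternatives. It was not called within E2 alone (0.19, adjusted p = 0.575), within batch 3 alone (0.53, adjusted p = 0.234) or with the GC and length correction (0.36, adjusted p = 0.104). Nor was it called without HbHp replicate 1 (0.32, adjusted p = 0.144) or in the fit of 55 libraries (0.21, adjusted p = 0.392). At 400 µM Fth1 passed within E2 alone (0.58, adjusted p = 0.00999) and within batch 3 alone (0.70, adjusted p = 0.0466). The Slc40a1 call at 400 µM passed within E2 alone (0.82, adjusted p = 0.0292) but not within batch 3 alone (0.92, adjusted p = 0.132), with the GC and length correction (0.68, adjusted p = 0.0874), with no filter on counts (0.76, adjusted p = 0.055) or with thinned counts (0.76, adjusted p = 0.0537). It was also lost without HbHp replicate 1 (0.81, adjusted p = 0.0509), 3 (0.66, adjusted p = 0.152) or 4 (0.58, adjusted p = 0.241).

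**Figure D3:**
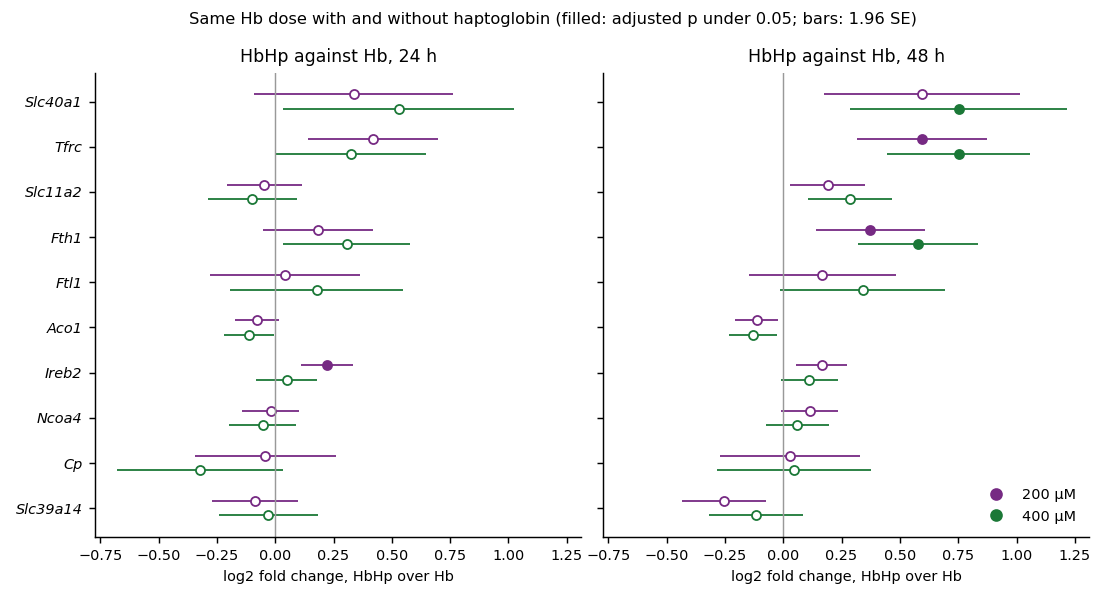
Log2 fold change of HbHp over Hb at the same dose for the 10 genes at 24 h and 48 h, with 95% intervals (lines), at 200 µM (purple) and 400 µM (green). Filled points passed the test. At 48 h Tfrc and Fth1 lie to the right of 0 at both doses, at 0.60 and 0.75 for Tfrc.

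Haptoglobin alone was also followed by higher Slc40a1 mRNA at both times and higher ferritin mRNA at 48 h. Tfrc did not pass the test at either time. All Hp libraries are of batch 3, but only 2 controls of each time are. These comparisons therefore lean on the batch term of the fit. Hp at 400 µM gave 2 calls among the 10 genes at 24 h (Slc40a1 and Ireb2 higher, 0.704% of all genes) and 4 at 48 h (Slc40a1, Fth1 and Ftl1 higher and Aco1 lower, 10.8% of all genes). Slc40a1 ran from 18.2 to 52.5 CPM (median 34.5) at 24 h, with 11 of 12 libraries above the highest control, and from 38.1 to 75.3 CPM (median 44.5) at 48 h, with 11 of 11 above. Its log2 fold changes were 0.996 ± 0.20 (SE, adjusted p = 0.00754) and 1.24 ± 0.20 (SE, adjusted p = 1.94e-05). At 48 h Fth1 was 7205 ± 1241 CPM, with 11 of 11 libraries above the highest control (0.76, adjusted p = 3.33e-06), and Ftl1 gave 0.50 (adjusted p = 0.0209). Tfrc ran from 67.3 to 99.3 CPM (median 88.7) at 48 h, none below the lowest control (-0.07, adjusted p = 0.767, 95% interval -0.33 to 0.19). Within E2 alone, against 2 controls, the 48 h changes were 0.61 (adjusted p = 0.38) for Slc40a1, 0.28 (adjusted p = 0.522) for Fth1 and -0.03 for Ftl1. The other genes did not pass at either time. At 48 h these were Ncoa4 (0.16, adjusted p = 0.0592), Ireb2, Slc11a2, Cp and Slc39a14, from -0.09 for Cp to 0.16 for Ncoa4, and at 24 h Fth1, Ftl1, Ncoa4, Aco1, Slc11a2, Cp and Slc39a14, from -0.09 for Cp to 0.28 for Fth1. The summed microglial markers ran from 663 to 3469 CPM (median 2404) with Hp at 48 h, against a median of 1449 CPM in control, and the border macrophage markers from 77.3 to 163 CPM (median 143), against 83.8 CPM. Choroid plexus and ependyma markers summed to a median of 531 CPM with Hp at 48 h, against 179 CPM in control, and to 157 against 358 CPM at 24 h. In the fit at 48 h Pf4, 1 of the 6 border macrophage markers, was higher and the astrocyte marker Aldh1l1 lower. At that time 0 of 8 microglial markers passed (0 at an unadjusted p under 0.05 in edgeR), and the part of these cells was not tested. None of the 6 Hp calls passed within E2 alone or batch 3 alone, fits that called 5 and 0 of all genes at 48 h. The Aco1 change (-0.13, adjusted p = 0.0335) was lost without the E2 control of batch 3, and the 24 h Ireb2 call (0.19, adjusted p = 0.0475) without either control of batch 3 (0.20, adjusted p = 0.0782, and 0.15, adjusted p = 0.273).

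HbHp and Hp at 400 µM differ by the Hb in the complex. All libraries of both are from batch 3, and the Hp libraries carry both codes. At 48 h 1 of the 10 genes passed, where 1.44% of all genes did, Fth1 (0.46 ± 0.12 SE, adjusted p = 0.0202). Slc40a1 gave 0.72 (adjusted p = 0.0523). At 24 h 0 passed, where 0.619% of all genes did, with Slc40a1 at 0.80 (adjusted p = 0.0682) and Fth1 at 0.44 (adjusted p = 0.0756). At 24 h edgeR gave 4 of the 10 an unadjusted p under 0.05, and DESeq2 called 0. Within E2 alone the same contrast was sharper. Slc40a1 was higher with HbHp at 24 h (1.03, adjusted p = 0.000104) and 48 h (1.10, adjusted p = 6.38e-06), Fth1 at 24 h (0.49, adjusted p = 0.00308) and 48 h (0.70, adjusted p = 1.27e-06), and Tfrc lower at 24 h (-0.53, adjusted p = 0.0098). Under that code the 6 Hp libraries of 48 h had 38.1 to 53.3 CPM of Slc40a1 and the 5 HbHp libraries 67.6 to 135 CPM, with no overlap. Leaving out HbHp replicate 3 (0.38, adjusted p = 0.126) or 4 (0.41, adjusted p = 0.0973) ended the Fth1 call of the fit over both codes. Tfrc at 48 h differed by -0.03 (adjusted p = 0.934) with a 95% interval of -0.30 to 0.24. Ftl1, Ncoa4, Aco1, Ireb2, Slc11a2, Cp and Slc39a14 did not pass either, with log2 differences from -0.30 for Cp to 0.30 for Ftl1 at 24 h and from -0.09 for Slc39a14 to 0.23 for Ftl1 at 48 h.

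**Figure D4:**
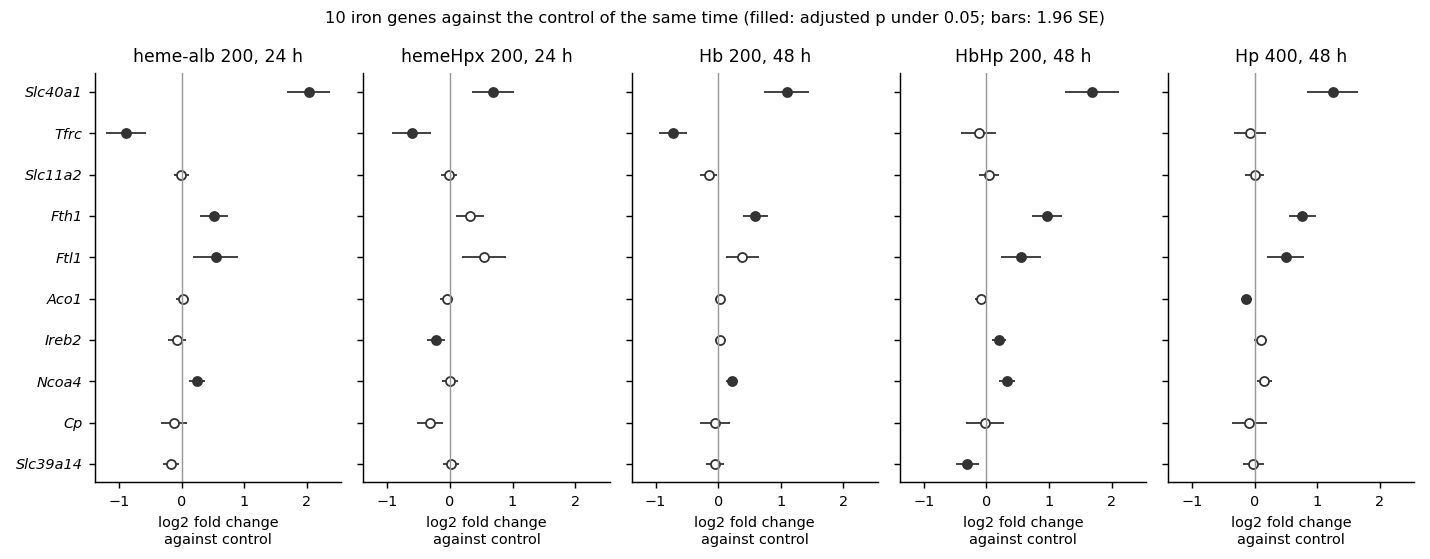
Log2 fold change against the matched control for the 10 genes, with 95% intervals (lines), under heme-albumin 200 µM and hemeHpx 200 µM at 24 h and Hb 200 µM, HbHp 200 µM and Hp 400 µM at 48 h. Filled points passed the test. Slc40a1 lies to the right of 0 in all 5 panels, from 0.69 with hemeHpx to 2.03 with heme-albumin, and Tfrc lies left of 0 and filled for heme-albumin, hemeHpx and Hb.

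Untreated slices of the 2 times were compared to see what a further day in culture does. Between 48 and 24 h, 0 of the 10 genes passed in untreated slices, where 4.5% of all genes did, with Slc40a1 at 0.22 (adjusted p = 0.54) and Tfrc at -0.01 (adjusted p = 0.982). edgeR gave 3 of the 10 an unadjusted p under 0.05. The test of whether a 200 µM effect differed between the times called 0 of the 10 for Hb (0% of all genes) and 0 for HbHp (0.0121% of all genes), with 1 and 2 of the 10 at an unadjusted p under 0.05. The largest of these for HbHp was Fth1, whose effect was higher at 48 h by 0.52 (adjusted p = 0.225). So a gene called at 48 h and not at 24 h was not shown to respond differently at these times.

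Over the 15 comparisons of a treatment with its control, Slc40a1 passed in 14, Fth1 in 11, Ncoa4 in 6, Tfrc in 7, Ftl1 in 5 and Ireb2 in 5, while Cp, Aco1 and Slc39a14 passed in 1 each and Slc11a2 in 0. The comparisons of a batch share their controls, so these are not independent counts. Slc11a2, the endosomal transporter, had group means of 54.4 to 58.8 CPM in batch 1 and 53.3 to 71.4 CPM in batches 2 and 3, and its log2 fold changes against control ran from -0.19 to 0.10. Aco1, the sensor that doubles as cytosolic aconitase, had group means of 92.4 to 98.3 CPM and 80.3 to 88.8 CPM, with log2 fold changes from -0.13 to 0.04. Those of Ireb2 were 96.5 to 113 CPM and 82.5 to 98.3 CPM, with log2 fold changes from -0.23 to 0.24. The importer Slc39a14 lay at 143 to 163 CPM and 108 to 134 CPM, and its log2 fold changes ran from -0.31 to 0.02. Cp, the ferroxidase, lay at 770.1 to 993 CPM and 571 to 856 CPM, with log2 fold changes from -0.39 to 0.07. On the same scale those of Slc40a1 ran from 0.53 to 2.38 and those of Tfrc from -1.22 to 0.05.

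A further 43 genes of iron transport, iron-sulfur assembly and hepcidin control were listed with the 10, of which 36 were tested in batch 1 and 37 in batches 2 and 3. With heme-albumin at 200 µM 5 of 36 passed, a share near that of all genes (13.6%): Bmp2, Pcbp1, Pcbp3 and Slc25a37 were higher and Slc39a8 lower. With HbHp at 200 µM 0 of 37 passed at 24 h, where 1.93% of all genes did, and 6 at 48 h, again near the share of all genes (11.9%), with Slc11a1, Bmp2, Fbxl5 and Glrx3 higher and Pcbp1 and Pcbp2 lower. At 24 h edgeR gave 4 of the 37 an unadjusted p under 0.05 and DESeq2 called 0. Their median log2 fold changes in these 3 comparisons were 0.08, -0.02 and 0.05, against -0.01, 0.0011 and -0.01 over all genes. The list as a whole was thus not shown to stand apart, and the genes below are given for their own values. Slc39a8, the importer ZIP8, went from 9.88 ± 1.94 CPM (SD, n = 10) to 6.76 ± 0.832 CPM at 200 µM heme-albumin (-0.54, adjusted p = 0.000257) and gave -0.21 (adjusted p = 0.154) with hemeHpx. Bmp2, a ligand of the pathway that controls hepcidin, went from 8.17 ± 2.62 CPM (SD, n = 10) to 12.8 ± 3.95 CPM (0.65, adjusted p = 0.0059) and 17.5 ± 4.72 CPM at 400 µM (1.10, adjusted p = 6.65e-07), and with HbHp at 48 h gave 0.65 (adjusted p = 0.041). With Hp alone at 48 h Bmp2 gave 0.85 (adjusted p = 0.00384), and in untreated slices it was lower at 48 than at 24 h (-0.82, adjusted p = 0.00389). Within E2 alone neither Bmp2 difference at 48 h passed (0.80, adjusted p = 0.194 with HbHp and 0.63, adjusted p = 0.636 with Hp). Slc11a1, the phagosomal metal transporter of myeloid cells, ran from 25.2 to 119.8 CPM (median 49.5) in control at 48 h and from 149 to 179 CPM (median 171) with HbHp at 200 µM (0.93, adjusted p = 0.00194). This value is taken after removing an E2 term of 0.69, since all HbHp libraries but 2 of 9 controls are E2. Slc11a1 also rose with Hp alone (0.87, adjusted p = 0.00281). Within E2 alone it gave 0.46 (adjusted p = 0.174) with HbHp at 200 µM and 0.10 (adjusted p = 0.952) with Hp, and within batch 3 alone 0.66 (adjusted p = 0.135) and 0.54 (adjusted p = 0.811). With HbHp at 400 µM and 48 h it was 1.28 (adjusted p = 4.57e-05), and it passed within E2 alone (0.81, adjusted p = 0.0152) and within batch 3 alone (1.01, adjusted p = 0.0137).

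By Pearson's r of log2 CPM, the 5 genes most like Slc40a1 among 13886 compared were, with r over the 60 libraries of batch 1 and over the grouped libraries of batches 2 and 3, Hmox1 (0.93 and 0.91), Esd (0.90 and 0.88), Ypel5 (0.90 and 0.87), Blvrb (0.87 and 0.86), Prdx1 (0.91 and 0.86). Hmox1 encodes heme oxygenase 1, which opens the heme ring and frees its iron, Blvrb a biliverdin reductase and Prdx1 a peroxiredoxin. For Tfrc they were Spag9 (0.73 and 0.64), Dgcr8 (0.56 and 0.56), Stag2 (0.56 and 0.56), Pi15 (0.56 and 0.61), Xiap (0.67 and 0.54), with lower values throughout. These libraries share treatment groups and depth, so the values describe the pattern over the groups. In the second set the means of batch and of the E1 or E2 code were removed first.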

How the data were processed

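Bulk mRNA (Lexogen SPLIT extraction, Illumina TruSeq) of 188 brain slice cultures was measured. For each library the authors deposited raw counts of reads by Ensembl gene identifier, which are not normalized. The submitters' processing notes name featureCounts and GRCm39. The aligner, versions and strand setting are not given in the sources used here. Groups follow the titles, except that the 10 hemeHpx libraries, whose titles name haptoglobin, follow their treatment tags and library names, which both name hemopexin. A further 20 libraries, whose titles, tags and in part library names give different agents, and 1 control with contradictory times were left out.

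The rest was computed from these counts. edgeR 4.0.16 in R 4.3.3 was used with TMM scaling, filterByExpr (minimum count 10, minimum total 15) and quasi-likelihood F tests, and p-values were adjusted by Benjamini-Hochberg over all genes tested (threshold 0.05). The 60 libraries of batch 1 (15554 genes) and the grouped libraries of batches 2 and 3 (16473 genes) were fitted apart, the latter with terms for batch and for the E1 or E2 code. Each SE was obtained from the log2 fold change and its F statistic, and 95% intervals are 1.96 SE either way. Depth was 11038484 to 54174784 counts per library, and counting error is small beside the spread between libraries. Tested on simulated data, the fit called 89% of genes changed by 1 and 72% of those changed by 0.5 on the log2 scale for heme-albumin 200 µM against control, and 87% and 61% for HbHp 200 µM against control at 48 h.

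Positions, exon lengths and hairpin sites come from GRCm38 with GENCODE M21. Figures used Python 3.11.15 and matplotlib 3.10.9. Genes are named singly or in a range in the comparisons of treatments, though not all 10 in each. In steps of dose and time, counts and single genes are given. Of 43 other iron genes those called with a log2 fold change of at least 0.5 either way in heme-albumin 200 µM or HbHp 200 µM against control are named, and the other called ones by symbol. The 5 genes most like Slc40a1 and Tfrc are those with the highest value of the lower of the 2 correlations, among genes whose mean reached 1 CPM. The members, lists and rules were chosen with earlier results of these data known. No 2 libraries of a group among 630 pairs held identical counts. The alternatives were DESeq2 1.42.0, RLE scaling, other count filters, the replicate code as a block, a GC content and length correction, thinned counts, fewer terms, code E2 or batch 3 alone, fewer groups, copies of ferritin added, and libraries left out in turn.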

Additional observations from a re-analysis of the deposited data

Results flagged for a closer look

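Of 160 pairs of a gene and a group of 4 to 10 libraries, 16 held a library whose gap to its nearest neighbour was large for the range of its group on the log2 scale. Chance alone gives about 1 in 20 such pairs. HbHp 200 µM replicate 1 at 48 h accounted for 3 of these, being the highest of its group for Fth1 at 11274 CPM and for Ncoa4 at 111 CPM and the lowest for Slc39a14 at 63.4 CPM. Without it, a check added after its levels were seen, 4 of the 10 genes passed in HbHp 200 µM against control at 48 h in place of 6, and 1 in place of 2 against Hb.

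The E2 control of batch 3 was the lowest control for Ireb2 at both times, at 66.3 CPM at 24 h (replicate 11) and 64.5 CPM at 48 h (replicate 9), and for Tfrc at 24 h, at 61.3 CPM. Heme-albumin 12.5 µM replicate 8 was lowest for Tfrc at 63.8 CPM and highest for Fth1 at 8147 CPM. Heme-albumin 200 µM replicate 8 was highest for Aco1 at 115 CPM and for Ireb2 at 139 CPM. Hb 200 µM replicate 10 at 24 h was highest for Slc11a2 at 100.2 CPM and for Ncoa4 at 100.3 CPM. Leaving out these 3 libraries in turn, also added after seeing them, changed no call among the 10 genes in the comparisons refitted. For heme-albumin at 12.5 and 200 µM these were the comparisons with control. For Hb at 200 µM and 24 h they were those with control, HbHp at 200 µM and Hb at 400 µM. The comparison of hemeHpx with heme-albumin and the steps between heme-albumin doses were not refitted without these libraries. Single cases were Slc40a1 in HbHp 200 µM replicate 6 at 24 h with 63.9 CPM, Aco1 in Hb 400 µM replicate 9 at 24 h with 97.1 CPM, Ireb2 in Hb 400 µM replicate 3 at 48 h with 136 CPM and Ncoa4 in hemeHpx replicate 8 with 61.6 CPM.

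A further 20 libraries of batch 3, whose titles name hemoglobin-haptoglobin 400 and whose tags name a hemopexin complex, belong to no group. Their Slc40a1 levels ran from 24.0 to 97.7 CPM with a median of 48.8 CPM, and 13 of 20 lay above the highest control of batches 2 and 3 (35.02 CPM).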

How the results depend on the processing

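Of 290 values (10 genes in 29 comparisons), 62 passed the test, and 25 of these kept their direction and passed under every alternative run. DESeq2 kept all 62 and added 8. Counts of genes called were compared for heme-albumin at 200 and 400 µM, hemeHpx, and hemeHpx against heme-albumin. At 48 h they were compared for Hb and HbHp at 200 µM, Hp, and HbHp against Hb at both doses. Other comparisons are not in this list, and calls were lost there too. With Hb at 400 µM and 48 h, Slc40a1 in E2 alone gave 0.90 (adjusted p = 0.114). Among the comparisons listed, counts that moved by over 1.5 times were these. For hemeHpx against control (3 of the 10 genes), RLE scaling gave 5, DESeq2 6, at least 10 counts in every library 5, the replicate block 6, and GC and length offsets 1. For Hb 200 µM at 48 h (4), E2 alone gave 1 and batch 3 alone 0. For Hp 400 µM at 48 h (4), both gave 0. Over all genes E2 alone and batch 3 alone called 14 and 0 for this Hb comparison and 5 and 0 for Hp, so few genes of any kind passed there. For HbHp against Hb at 200 µM and 48 h (2), RLE scaling, no filter, thinning and E2 alone gave 1, the GC and length offsets alone or with the replicate block 0, batch 3 alone 0, the replicate block 4, the E1 or E2 term only 5, and neither term 4. For HbHp against Hb at 400 µM and 48 h (3), batch 3 alone gave 1, and leaving out single libraries gave 2 to 4. Leaving out single libraries gave 4 to 5 for HbHp 200 µM at 48 h (6), with 4 without HbHp replicate 1, 1 for HbHp against Hb at 200 µM and 48 h (2, without the same library) and 3 to 4 for Hp at 48 h (4). The cause of these shifts was not tested, beyond fewer libraries in the fits of E2 or batch 3 alone. Directions that reversed were Tfrc with Hb 200 µM at 24 h in batch 3 alone (0.037), Ftl1 with Hp at 48 h in E2 alone (-0.029), and Ireb2 with neither term in HbHp 200 µM at 24 h (-0.045, and -0.075 against Hb) and at 48 h with 200 µM (-0.10) and 400 µM (-0.11).

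The labels do not say what the shared codes mark, and not every pair correlated, so the libraries were not treated as paired. In batch 1 the median correlation of deviations was 0.19 for the same code and -0.01 for other codes. In batches 2 and 3 it was 0.06 and -0.005, a hint of likeness within codes. The same codes recur across the treatment groups and in places within a group, so libraries of a group may not be independent. The main fits had no term for these codes beyond E1 or E2. The deviations of libraries with the same code correlated above 0.1 in 94 of 169 pairs of batch 1 and 124 of 291 of batches 2 and 3, and 30 of 60 libraries of batch 1 and 16 of the later batches correlated best with their own code. With the replicate block, Slc40a1 between 50 and 12.5 µM heme-albumin (0.84, adjusted p = 0.000647) and between HbHp and Hb at 200 µM and 48 h (0.64, adjusted p = 0.0439) and Tfrc at 50 µM (adjusted p = 0.0349) passed in addition. Over all genes, hemeHpx against control had 1276 calls, and 277 without a filter on counts, 3706 with the replicate block and 108 with GC and length offsets. HbHp 200 µM at 48 h had 1959, and 5150 with neither term, 4066 with the batch term only, 646 in E2 alone, 359 in batch 3 alone, 822 in the fit of 55 libraries and 1034 with GC and length offsets. HbHp against Hb at 200 µM and 48 h had 821, and 3427 with neither term, 2327 with the batch term only, 1206 with the replicate block, 342 in the fit of 55 libraries, 215 with the offsets (340 with the block too), 54 in E2 alone and 7 in batch 3 alone. The 4 calls among the 10 genes with neither term do not include Tfrc (0.23, adjusted p = 0.24). Of 180 group means, 28 moved by more than 1 SD on DESeq2-normalized counts, all but 1 of them (Fth1) of Aco1, Ireb2, Ncoa4, Slc11a2 or Slc39a14, and 2 (Ireb2 and Slc11a2) on CPM of the plain total.

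The checks without HbHp 200 µM replicate 1, heme-albumin 200 and 12.5 µM replicate 8 and Hb 200 µM replicate 10 were chosen after seeing the data. Leaving out HbHp 400 µM libraries at 24 h or 48 h also added calls against Hp: Slc40a1 (0.94, adjusted p = 0.0198) and Fth1 (0.54, adjusted p = 0.0177) at 24 h without replicate 4, and Slc40a1 at 48 h without replicate 2 (0.82, adjusted p = 0.04) or 5 (0.79, adjusted p = 0.0471). Thinned to the depth of the shallowest library, 55 of the 62 values still passed, and HbHp 200 µM at 48 h had 1604 calls over all genes, so depth bears on the number of calls. HbHp at 400 µM rests on 4 or 5 libraries, and E2 has a single control in batch 3 at each time.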

Other observations

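In the 20 libraries with contradictory labels, Tfrc ran from 47.6 to 81.5 CPM (median 62.5), and 10 of 20 lay below the lowest control of batches 2 and 3 (61.3 CPM). Their Fth1 ran from 4126 to 7863 CPM (median 5741) with 3 of 20 above the highest control, Ftl1 from 2732 to 9686 CPM (median 4839) with 2 above, Ncoa4 from 70.8 to 100.4 CPM (median 76.5) with 8 above and Slc39a14 from 127 to 169.7 CPM (median 152) with 5 above. The library named as a control with contradictory times had 32.99 CPM of Slc40a1 and 83.7 CPM of Tfrc, within the range of the grouped controls. These values are given without a comparison, since the labels do not settle what the slices received.

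The ratio of Fth1 to Ftl1 reads within a library had a group median between 1.74 and 2.08 in the 6 groups of batch 1. In batches 2 and 3 its median was lower in E2 than in E1 in every group with both except the 24 h controls, and groups hold different shares of these codes, so it is given within E2. At 48 h the median was 0.806 in 2 controls, 0.887 in 6 Hp libraries and 1.04 and 1.08 in 3 libraries each of Hb at 200 and 400 µM. At 24 h it was 1.46 in 3 controls (0.991 to 1.83), 1.10 in 6 Hp libraries and 1.16 in 8 libraries of HbHp at 200 µM, ranges that overlapped.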
